A study of Mus musculus with 4 samples.

Results

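Gene expression was compared between primary mouse embryonic fibroblasts carrying a mutation called tri-CH1 and wild-type fibroblasts, both kept at 21% oxygen. The comparison took the deposited signals of 1 array per genotype. It covered every probe set with 1 gene symbol whose signal was at least 500 on the brighter of the 2 arrays, with genes on the X and Y chromosomes left out, which were 6089 of the 22690 probe sets on the array. Each gene was represented by the probe set with its highest mean signal over the 4 arrays of the series, which gave 4192 of the 12393 named genes. Signals under 200 were raised to 200 before a ratio was taken, so a ratio that used such a signal is given as at least that large. A gene was called higher or lower in tri-CH1 when its signals differed 2-fold or more.

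CBP and p300, encoded by Crebbp and Ep300, are closely related transcriptional coactivators. They are brought to genes by DNA-bound transcription factors, acetylate histones and other proteins, and link those factors to the transcription machinery. Their CH1 domain, also called TAZ1, is a zinc-binding module that serves as a docking surface for the activation domains of many factors, among them HIF-1α, its competitor CITED2, STAT2 and RelA. Embryonic fibroblasts are cultured mesenchymal cells that secrete collagen and other matrix proteins and carry a contractile actin cytoskeleton.

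The wild-type and tri-CH1 fibroblasts were prepared from E14.5 embryos, which are at mid-gestation. In tri-CH1 cells the CH1 domain is deleted from both alleles of p300 and from 1 allele of CBP, so 1 CBP allele stays intact. Subconfluent cultures of both genotypes received fresh medium that had been equilibrated overnight at the oxygen level of the treatment, and were lysed after 6 h at 37 °C with 5% carbon dioxide. The same genotypes were also kept for 6 h at 0.1% oxygen, and that pair is used here as a second reading of the genotype difference. It shares no array with the pair at 21%, although the labels do not say whether the cultures came from the same embryos. A call at 21% given without a value at 0.1% does not mean a call at both levels.

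With 1 array in each group there was no estimate of the spread between cultures, so differences are described by size and no test was made. A lower signal from a whole culture cannot separate fewer cells that express a gene from less of its RNA per cell. The wild-type array at 21% was of a different lot from the remaining 3 arrays, and its signals were multiplied by 3.46 to reach the common target against 10.3 for the tri-CH1 array. After scaling, the average background came to 139 for wild type against 343 for tri-CH1. At 21% oxygen, array lot and scale factor therefore cannot be told apart from genotype. Both arrays at 0.1% came from 1 lot, with scaled backgrounds of 246 for wild type and 393 for tri-CH1. The ratio of 3' to 5' signal of the Gapdh controls was 0.67 for wild type against 0.63 for tri-CH1 at 21%, and that of the Actb controls was 1.24 and 1.32. Crebbp, 1 of the targeted genes, read 82.8 in wild-type and 61.3 in mutant cells at 21%, and 29.6 and 87.7 at 0.1%. All of these lie under 200, so the array did not measure the deletion, and probe sets for p300 were not analysed here.

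The cells carried fibroblast transcripts on every array. Of 14 fibroblast markers, 12 were bright enough to compare, none was under 200 on all 4 arrays, and their signals summed to 150681 in wild type and 162984 in tri-CH1 at 21%. Col1a2, a chain of type I collagen, read 27209 and 35445, and the intermediate filament gene Vim read 32666 and 38421. Of the 12 markers 8 had a positive and 4 a negative log2 difference, with Lum called higher and Thy1, at 13148 and 3837, called lower. Markers of other cells were mostly too dim to compare, with 3 of 20 macrophage and blood markers bright enough and fewer for each other cell type. Under 200 on all arrays were 8 of 20 macrophage and blood markers, 10 of 15 endothelial, 17 of 21 skeletal and cardiac muscle, 13 of 19 neuronal and glial, 9 of 16 cartilage and bone, and 10 of 14 epithelial and mesothelial markers. The muscle markers summed to 5112 in wild-type and 2746 in tri-CH1 cells at 21%, and 5037 and 2071 at 0.1%, of which Acta1 alone gave 3494 and 698 at 21%. The summed signals in wild type and tri-CH1 at 21% were 4869 and 4285 for macrophage and blood, 2175 and 2444 for endothelium, 2677 and 2975 for neurons and glia, 1809 and 2483 for cartilage and bone, and 1739.9 and 2157 for epithelium and mesothelium. The part of such cells in the differences was not tested.

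At 21% oxygen 131 genes were higher in tri-CH1, which is 3.12% of the 4192 genes compared, and 146 were lower, which is 3.48%. Together these 277 genes were 6.61% of the genes compared. The counts of called genes in the gene lists below stand beside these shares, at which a short list can hold 0 or a few calls. Differences of 3-fold or more were found in 43 higher and 41 lower genes, and of 8-fold or more in 5 higher genes and 1 lower gene. Most genes were close between the genotypes: 80.4% lay within 1.5-fold, and the median log2 difference was 0.034. The scatter of signals shows the called genes on either side of a dense band that follows the line of equal signal from the dimmest to the brightest genes.

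**Figure D1:**
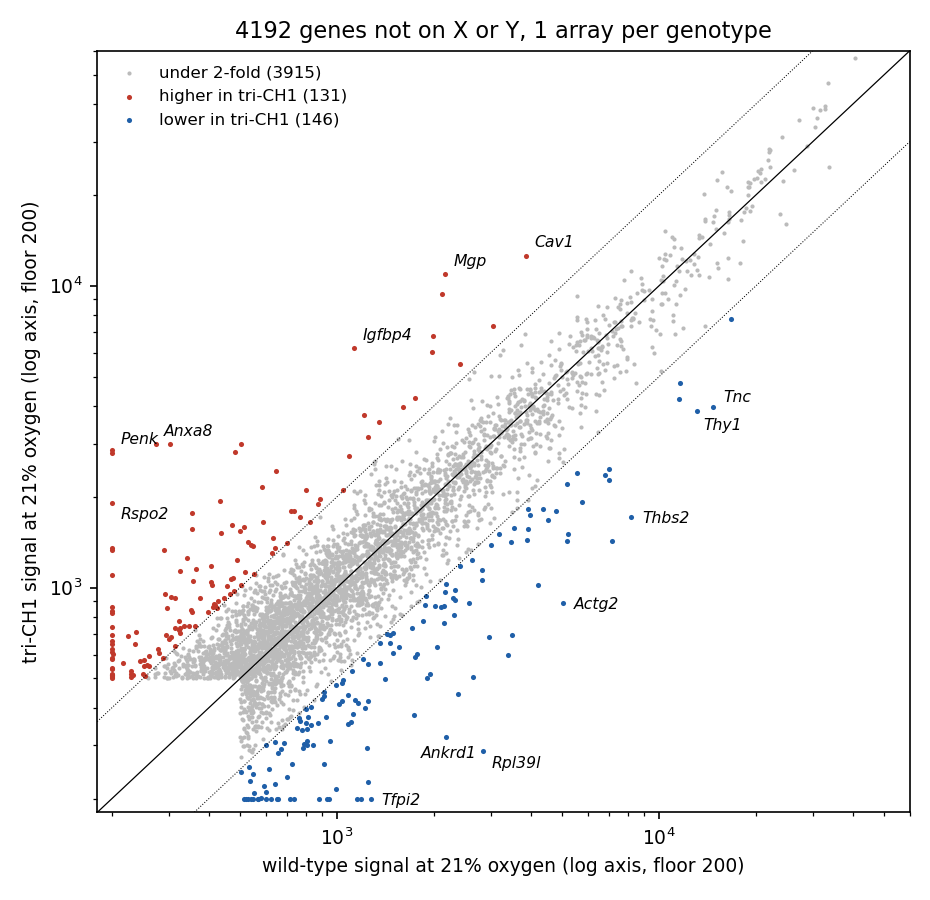
Each point is 1 of 4192 genes, with its wild-type signal at 21% oxygen on the x axis and its tri-CH1 signal on the y axis, both on log axes with signals under 200 drawn at 200. The solid line marks equal signals and the dotted lines 2-fold; 131 genes lie above the upper dotted line and 146 below the lower one.

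The gene furthest above the line was Aqp1, which encodes a water channel. It read 157 in wild-type and 2849 in tri-CH1 cells at 21%, and 197 and 2143 at 0.1%, so it was at least 14.2-fold higher at 21% and at least 10.7-fold higher at 0.1%. Penk, the precursor of the enkephalin peptides, read 113 and 2798 at 21%, and 97.5 and 2875 at 0.1%, at least 14-fold and 14.4-fold. Both genes were near or under the floor in wild type and well lit in tri-CH1 on each pair of arrays. Anxa8, an annexin that binds membranes in the presence of calcium, read 273 in wild type and 2981 in tri-CH1 at 21%, and 203 and 3347 at 0.1%, which is 10.9-fold and 16.5-fold. Its other bright probe set gave a log2 difference of 3.92 beside 3.45 for the one used, whose type can match more than 1 gene, as can those used for Gja1 and Igfbp5.

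Several of the largest rises were in secreted signalling proteins. Rspo2, an R-spondin that amplifies Wnt signals, read 86.2 and 1909 at 21%, and 111 and 1209 at 0.1%. Sfrp2, a secreted Wnt binding protein, read 117 and 1101 at 21%, and 78.7 and 912 at 0.1%. Bmp4, a ligand of the bone morphogenetic protein family, read 138 and 826 at 21%, and 141 and 967 at 0.1%. In each case the wild-type culture was under 200 and the tri-CH1 culture over 800, at both oxygen levels. The folds at 21% were at least 9.55 for Rspo2, 5.51 for Sfrp2 and 4.13 for Bmp4.

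Other genes among the 20 highest were already visible in wild type. Mgp, matrix Gla protein, an inhibitor of calcification, read 2169 in wild type and 10911 in tri-CH1 at 21%, and 1498 and 12320 at 0.1%. Gja1, which encodes the gap junction protein connexin 43, read 2115 and 9404 at 21%, and 2812 and 8987 at 0.1%. These were 5.03-fold and 4.45-fold higher at 21%, and are among the brightest genes called. Gas1, a membrane protein that binds Hedgehog ligands, was 4.48-fold higher at 21%, at 433 and 1938, and 2.27-fold higher at 0.1%, at 481 and 1091. Cbr2, a carbonyl reductase, was at least 6.75-fold higher, at 69.2 and 1351, and Il1rn, the interleukin 1 receptor antagonist, at least 6.68-fold, at 171 and 1336.

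On the other side, Rpl39l, a ribosomal protein gene that is a paralog of Rpl39, fell furthest. It read 2834 in wild type and 287 in tri-CH1 at 21%, and 2619 and 378 at 0.1%, a drop of 9.88-fold and 6.92-fold. Of the 38 cytosolic ribosomal protein genes compared 0 were called, with a median log2 difference of 0.16 at 21%, which was -0.06 when the arrays were scaled to the same median signal and -0.06 at 0.1%. Tfpi2, an inhibitor of serine proteases that acts in the matrix, read 1274 and 120 at 21%, and 1260 and 156 at 0.1%, at least 6.37-fold lower at 21%. Gng11, a gamma subunit of heterotrimeric G proteins, read 3403 and 596 at 21%, and 5435 and 998 at 0.1%, which is 5.71-fold and 5.45-fold lower. For these genes the wild-type signals were above 1000 and the tri-CH1 signals below it on both pairs of arrays.

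Further genes among the 20 lowest encode scaffolds, enzymes and receptors. Akap12, a scaffold that anchors protein kinase A, read 7131 and 1424 at 21%, and 5637 and 1087 at 0.1%, 5.01-fold and 5.19-fold lower. Plac8, a small cysteine-rich protein, read 2366 and 445 at 21%, and 2821 and 444 at 0.1%. Pla2g7, a secreted phospholipase that inactivates platelet-activating factor, read 878 and 43.4 at 21%, and 647 and 51.0 at 0.1%. Chst12, a sulfotransferase of chondroitin chains, was at least 4.73-fold lower at 21% and 4.07-fold at 0.1%. Gfra1, the receptor that binds the neurotrophic factor GDNF, was at least 4.66-fold lower, Nppb, which encodes brain natriuretic peptide, 4.63-fold, and Jag1, a Notch ligand, 4.56-fold. Lce1h, a late cornified envelope gene read by a probe set that can match more than 1 gene, read 1157 and 117 at 21%, and 1212 and 612 at 0.1%.

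The plot of the 20 highest and 20 lowest genes puts these signals side by side. Of the 20 highest, 19 were also called higher at 0.1%, the exception being Adm. Of the 20 lowest, 19 were also called lower at 0.1%, the exception being Lce1h, whose log2 difference there was -0.99.

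**Figure D2:**
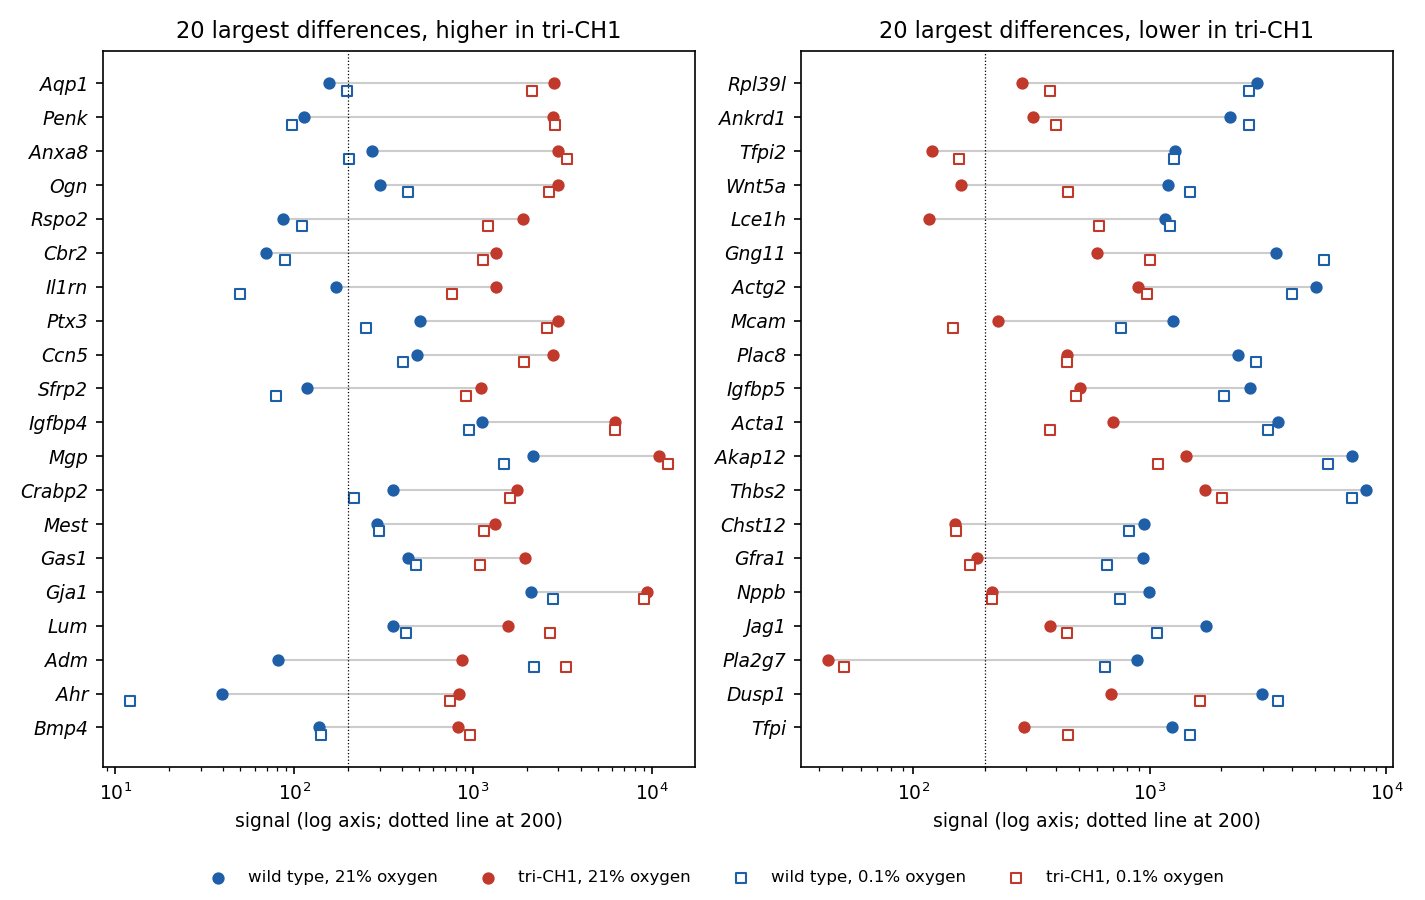
Signals on a log axis for the 20 genes with the largest positive (left) and the largest negative (right) log2 difference at 21% oxygen; filled circles are the arrays at 21%, open squares those at 0.1%, blue wild type, red tri-CH1, and the dotted line marks 200. In 19 genes of each panel the squares are also 2-fold or more apart in the same direction.

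The sequences just upstream of the genes at the 2 extremes are shown for orientation, since CBP and p300 act through factors bound there and at distant enhancers. They are the promoters of Anxa8, Rpl39l and Ankrd1, chosen by the smaller of the differences at both oxygen levels, and each run is the 250 bases before the annotated start in the GRCm38.p6 assembly of RefSeq, 5′ to 3′ on the strand of the gene. Penk also met the rule. Capitals mark GGAATG, the core recognised by TEAD factors, the DNA-binding partners of YAP.
Anxa8, chr14:34085729-34085978, plus strand: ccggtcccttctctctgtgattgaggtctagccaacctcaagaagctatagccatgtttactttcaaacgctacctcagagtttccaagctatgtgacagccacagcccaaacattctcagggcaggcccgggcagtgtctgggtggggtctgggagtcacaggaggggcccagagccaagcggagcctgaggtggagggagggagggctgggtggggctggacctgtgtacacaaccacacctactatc
Rpl39l, chr16:10169978-10170227, plus strand: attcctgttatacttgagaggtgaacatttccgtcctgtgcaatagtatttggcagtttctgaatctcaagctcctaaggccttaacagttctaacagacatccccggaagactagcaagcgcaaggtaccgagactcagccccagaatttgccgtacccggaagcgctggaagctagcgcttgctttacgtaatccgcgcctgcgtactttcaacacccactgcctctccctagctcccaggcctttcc
Ankrd1, chr19:36119845-36120094, minus strand: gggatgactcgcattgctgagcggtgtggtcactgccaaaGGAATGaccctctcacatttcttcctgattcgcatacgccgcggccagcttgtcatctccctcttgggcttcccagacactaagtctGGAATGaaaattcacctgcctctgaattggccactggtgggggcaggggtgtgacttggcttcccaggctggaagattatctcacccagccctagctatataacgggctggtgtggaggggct

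Ankrd1 encodes a muscle ankyrin repeat protein that is widely used as a readout of YAP and TEAD activity, and it read 2177 in wild-type and 320 in tri-CH1 cells at 21%, and 2627 and 401 at 0.1%. It was 6.82-fold and 6.55-fold lower, and its other bright probe set gave a log2 difference of -2.97. The GGAATG matches in its promoter begin 210 and 123 bases before the start, and the other runs have none. In the 300 bases from 250 before to 50 after the start, on both strands, GGAATG occurred in 14.6% of 27025 promoters of the table and in 11.9% of the 3436 promoters of genes compared. Among the called genes it occurred in 16.8% of 95 promoters of higher genes and 16.2% of 105 promoters of lower genes. TGACGTCA, the cAMP response element, occurred in 3.67% of the promoters of genes compared, in 0 of 95 of the higher and in 3.81% of the lower genes. The corresponding shares were 4.45%, 9.47% and 3.81% for the AP-1 element TGANTCA, 28.7%, 16.8% and 22.9% for ACGTG, the core of the hypoxia response element, and 7.33%, 12.6% and 15.2% for TATAAA, the TATA box. These are counts of letters in a short window and not of bound sites.

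The matrix produced by the fibroblasts differed gene by gene. The small leucine-rich proteoglycans, which coat and space collagen fibrils, were on the higher side: 3 of the 5 compared were higher, 0 were lower, and the median log2 difference was 1.61, against 0.034 over all genes compared. Ogn, osteoglycin, read 303 and 2988 at 21%, and 432 and 2672 at 0.1%, 9.86-fold and 6.19-fold higher. Lum, lumican, read 355 and 1562 at 21%, and 419 and 2684 at 0.1%, and Fmod, fibromodulin, read 305 and 933 at 21%, and 284 and 998 at 0.1%. All 3 were higher at both oxygen levels. Dcn, decorin, read 939.8 and 1308 at 21%, and Aspn, asporin, 1345 and 1281.

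The collagen chains themselves stayed closer. Of 17 compared, Col11a1 was 2.03-fold higher, at 502 and 1018, and Col7a1, the anchoring fibril chain, 2.25-fold lower, at 686 and 305. At 0.1% Col11a1 was 2.35-fold higher, while Col7a1 was 1.78-fold lower and not called. The median of the 17 was 0.14, and -0.08 when the arrays were scaled to the same median signal, with 0 higher and 2 lower. The abundant chains Col1a1, Col1a2 and Col3a1 had log2 differences of 0.40, 0.38 and 0.54. None of 13 collagen maturation enzymes was called, with a median of 0.03, but 1 was lower under that scaling, with a median of -0.19. So few genes can hold 0 calls at the share of 6.61% over all genes compared. Among 7 metalloproteinases, ADAMTS enzymes and their inhibitors, with a median of 0.12 and of -0.10 under that scaling, Adamts1 was 2.13-fold higher and Mmp9 at least 2.70-fold lower, while Timp2 had a log2 difference of 0.46. The call of Adamts1 ended under that scaling. At 0.1% Adamts1 was 1.66-fold higher and not called, and Mmp9 was too dim to compare.

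A list joined matricellular proteins, which sit in the matrix and signal to cells, with adhesive and structural proteins such as laminin and fibronectin. It went both ways, with 4 of 23 higher and 3 lower. Ccn2, Ccn4, Ccn5 and Thbs4 were not on it. The median of the 23 was -0.21 at 21% and 0.09 at 0.1%. All 7 called genes were called the same way at 0.1%. Thbs2, thrombospondin 2, read 8206 and 1711 at 21%, and 7133 and 2012 at 0.1%, 4.80-fold and 3.54-fold lower. Tnc, tenascin C, read 14689 and 3976 at 21%, and 14814 and 5371 at 0.1%. Thbs2 and Tnc are among the brightest genes that fell, and Lamb1, a laminin chain, was 2.04-fold lower. Rises were seen in Mgp, in Smoc2, a calcium-binding matrix protein (586 and 2151), in the microfibril gene Fbn2 (408 and 1018) and in the basement membrane gene Nid2 (104 and 538). The most abundant members were under 2-fold, with log2 differences of -0.63 for Thbs1, -0.12 for Sparc, -0.38 for Fn1 and -0.64 for Postn.

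Genes of the contractile apparatus were on the lower side. Of 9 smooth muscle and contractile genes compared, 2 were lower and 0 higher, with a median of -0.45 at 21% and -0.55 at 0.1%. Over all genes compared 3.48% were lower. Actg2, smooth muscle gamma actin, read 5039 and 889.9 at 21%, and 3998 and 973 at 0.1%, 5.66-fold and 4.11-fold lower. Cnn1, calponin, read 3977 and 1741 at 21%, and 3881 and 2299 at 0.1%, so it was called at 21% only. The abundant genes Acta2 (33735 and 24629), Tagln, Tpm1 and Cald1 had log2 differences of -0.45, -0.46, -0.40 and -0.30. Acta1, the skeletal muscle actin, listed with the muscle markers, read 3494 and 698 at 21%, and 3151 and 376 at 0.1%, 5.01-fold and 8.37-fold lower.

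Genes that respond to the factors SRF and YAP, which couple the actin cytoskeleton and cell shape to transcription, were lower in 4 of 15 cases and higher in 0, and 12 of the 15 had a negative log2 difference. Their median was -0.74 at 21% and -0.36 at 0.1%. Beside Ankrd1, the called genes were Cdc42ep3, an effector of the small GTPase CDC42 (1844 and 775), Fhl2, a LIM domain cofactor (1873 and 877), and Ccn2, connective tissue growth factor. Ccn2 read 16670 and 7785 at 21%, and 18728 and 12394 at 0.1%, 2.14-fold and 1.51-fold lower, while the other 3 were called at both levels. Actb, Actg1 and Tpm4 had log2 differences of 0.38, 0.28 and 0.19, and Vcl, vinculin, -0.31. Under scaling to the same median, 7 of the 15 were lower.

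**Figure D3:**
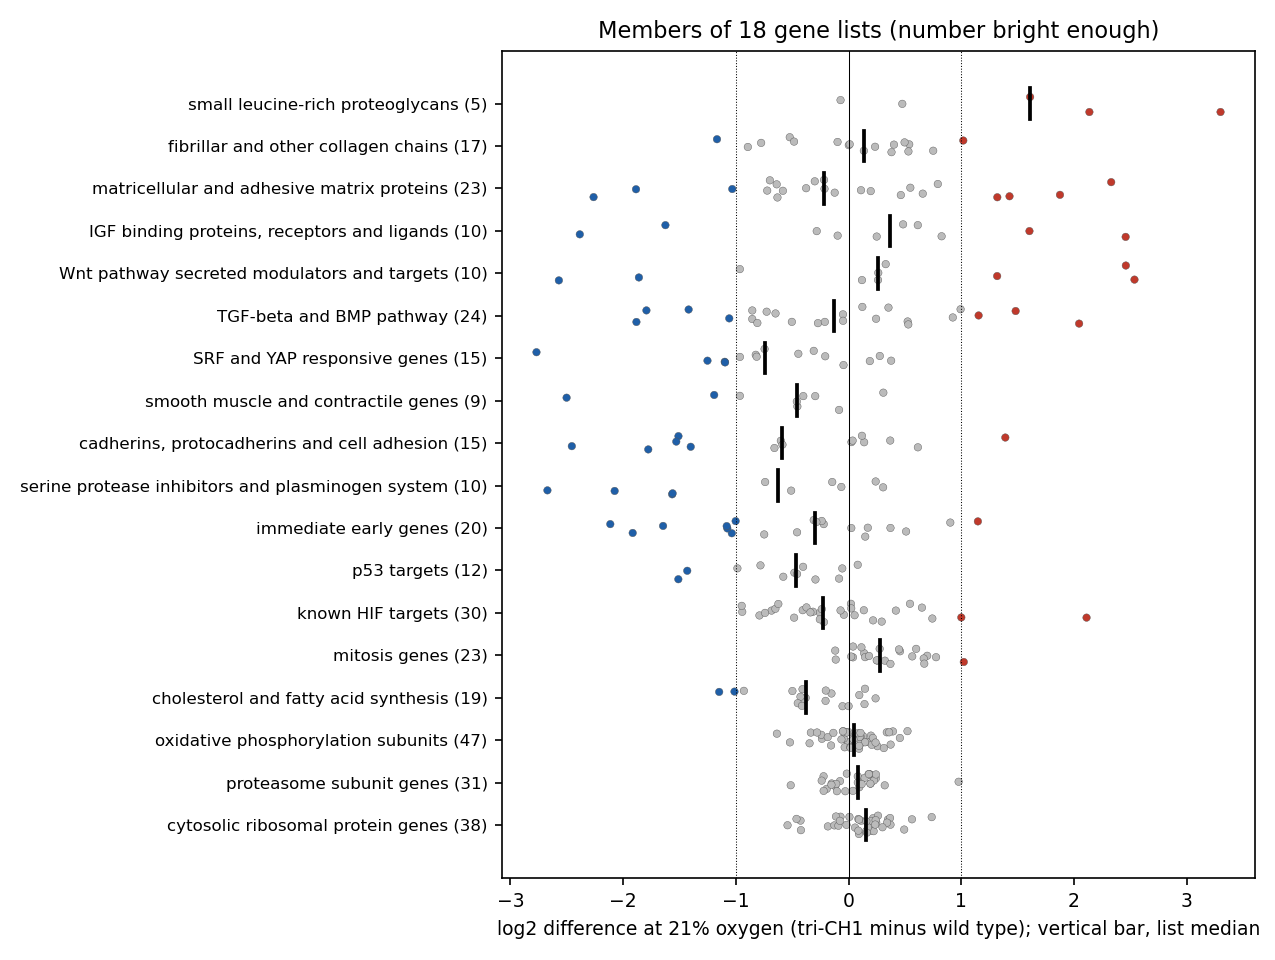
Log2 difference (tri-CH1 minus wild type) at 21% oxygen for each gene compared in 18 gene lists, with the number of genes in brackets; red points are higher, blue points lower and grey points under 2-fold, and the vertical bars are list medians. The medians run from -0.74 for genes responsive to SRF and YAP to 1.61 for small leucine-rich proteoglycans, and the subunits of the ribosome, proteasome and respiratory chain lie between the dotted 2-fold lines.

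Growth factor systems split within families. The insulin-like growth factor (IGF) genes gave 2 higher and 2 lower of 10 compared, with a median of 0.37, and all 4 were called the same way at 0.1%. Igf2, a fetal growth factor, read 1978 and 6018 at 21%, and 2054 and 7345 at 0.1%, 3.04-fold and 3.58-fold higher. The binding proteins, which hold IGF ligands in the extracellular space, divided: Igfbp4 read 1129 and 6206 at 21%, and 949 and 6191 at 0.1%, a 5.50-fold rise. Igfbp5 read 2642 and 506 at 21%, and 2047 and 486 at 0.1%, a 5.22-fold drop, and Igfbp7 read 6998 and 2269 at 21%, 3.08-fold lower. Igfbp6 had a log2 difference of 0.83, Igfbp2 of 0.48 and the receptor gene Igf2r of -0.10. Mest, which like Igf2 is expressed from the paternal allele, read 291 and 1333 at 21%, and 299 and 1155 at 0.1%. These were the called genes among 13 imprinted genes compared, whose median was 0.08 and fell to -0.14 under scaling to the same median; Gnas, Grb10 and Meg3 had log2 differences of -0.11, 0.26 and -0.18.

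In the Wnt list 3 of 10 genes were higher and 2 lower, with a median of 0.26 at 21% and -0.21 at 0.1%. Wnt5a, a ligand that signals mostly without β-catenin, read 1188 and 159 at 21%, and 1477 and 450.1 at 0.1%, at least 5.94-fold and 3.28-fold lower. Its other bright probe set gave a log2 difference of -1.32 beside -2.57. The matricellular CCN proteins, known as targets or modulators of Wnt signals, moved apart: Ccn5 read 483 and 2803 at 21%, 5.81-fold higher, and Ccn4 read 5162 and 1422, 3.63-fold lower. At 0.1% Ccn5 was 4.71-fold higher, while Ccn4 was 1.78-fold lower and not called. Ccnd1, the G1 cyclin D1, was 2.49-fold higher at 21%, at 1092 and 2725, and 2.41-fold at 0.1%. The receptors Fzd2, Fzd7 and Lrp6 had log2 differences of 0.26, -0.96 and 0.33. Rspo2 was not on this list.

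Of 24 TGF-beta and BMP pathway genes, 3 were higher and 4 lower, with a median of -0.13; under scaling to the same median 2 were higher and 7 lower, with a median of -0.42. Among ligands, Bmp4 rose, while the activin subunits fell: Inhba read 5199 and 1500.2 at 21%, and 6254 and 2269 at 0.1%, 3.47-fold lower, and Inhbb was at least 3.69-fold lower, at 737 and 170.2. Fst, follistatin, which binds and blocks activin, read 591 and 1651 at 21%, 2.80-fold higher. Of the remaining called genes, the receptor Tgfbr1 was 2.08-fold lower and Id4, a target that blocks basic helix-loop-helix factors, 2.67-fold lower at 21% and 4.49-fold at 0.1%. Inhbb and Tgfbr1 had log2 differences of -0.84 and -0.64 at 0.1% and were not called there. The other bright probe set of Inhbb gave -1.85 at 0.1%. Ltbp3, which tethers latent TGF-beta, was 2.23-fold higher, but its other bright probe set gave a log2 difference of -0.12. Id3, Tgfb3 and Skil, a feedback repressor, had values of -0.50, -0.85 and -0.65.

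Receptor tyrosine kinases and their ligands gave 1 higher and 4 lower genes of 15, with a median of -0.27, against 0 higher and 6 lower under scaling to the same median, and 0 of these 5 were called at 0.1%. Fgfr1, a fibroblast growth factor receptor, read 1364 and 562 at 21%, and 1640 and 994 at 0.1%. Hbegf, a ligand of the EGF receptor, was 2.24-fold lower, Pdgfc, a platelet-derived growth factor, 2.12-fold, and Efnb2, an ephrin, 2.85-fold. The other bright probe set of Pdgfc gave a log2 difference of -0.73. Ntrk2, a neurotrophin receptor, was 2.16-fold higher at 21%, at 281 and 606, with a log2 difference of -0.17 at 0.1%. In this list the differences at 21% oxygen were thus not met at 2-fold by the other pair of arrays.

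Immediate early genes, which answer growth factor and stress signals within minutes, were lower in 7 of 20 cases and higher in 1. Their median was -0.30 at 21% and -0.09 at 0.1%. Dusp1 and Dusp6, phosphatases that switch off MAP kinases, read 2973 and 687, and 1946 and 516, at 21%, which is 4.33-fold and 3.77-fold lower. At 0.1% they were 2.13-fold and 2.26-fold lower. Maff, a small Maf factor, was at least 3.13-fold lower, and Klf6, Ier3 and Egr2 were between 2.002-fold and 2.12-fold lower at 21%. The other bright probe sets of Klf6 gave log2 differences of -0.24 and -1.02. Myc, the growth-regulating factor, read 1465 and 695 at 21%, and 1051 and 1022 at 0.1%, so the genotypes were apart on 1 pair of arrays and level on the other. Klf2 was 2.22-fold higher, a call that ended under cyclic loess and under scaling to the same median, and Egr1 had log2 differences of 0.90 at 21% and 1.29 at 0.1%.

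Surface adhesion genes were lower in 5 of 15 cases and higher in 1. Of the 15, 7 had a positive and 8 a negative log2 difference, and the median was -0.59 at 21% and -0.26 at 0.1%. Thy1, a surface glycoprotein used to mark fibroblasts, read 13148 and 3837 at 21%, and 12389 and 3274 at 0.1%, 3.43-fold and 3.78-fold lower. Mcam, an adhesion molecule of the immunoglobulin family, read 1246 and 227 at 21%, and 755 and 146 at 0.1%. Cdh11, the cadherin typical of mesenchyme, read 7007 and 2462 at 21%, 2.85-fold lower, Ncam1 was 2.88-fold lower and Cdh3 at least 2.64-fold. Sdc4, a heparan sulfate proteoglycan of focal adhesions, was 2.62-fold higher, at 1349.5 and 3540. Of these genes 3 were called the same way at 0.1%, namely Thy1, Mcam and Ncam1. At 0.1% Cdh11 was 1.99-fold lower and Sdc4 1.91-fold higher, both not called, and Cdh3 was too dim to compare. Cd44, another surface receptor, had a log2 difference of -0.59. Of 14 tetraspanins and integrins, with a median of 0.07 and of -0.16 under scaling to the same median, the tetraspanins Cd82 (406 and 1176) and Cd9 (1749 and 4250.1) were higher, and both were higher at 0.1%, while Itgb1, Cd81 and Itgav had values of -0.47, -0.32 and -0.22.

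The list of serine protease inhibitors and genes of the plasminogen system held 4 lower genes of 10 compared. None was higher, the median was -0.62, and all 4 were called lower at 0.1%. Tfpi, the inhibitor of the tissue factor pathway, read 1239 and 294 at 21%, and 1471 and 449.5 at 0.1%, 4.21-fold and 3.27-fold lower. F3, tissue factor itself, read 1777 and 603 at 21%, and 3426 and 941 at 0.1%, and Plat, tissue plasminogen activator, 1743 and 589 at 21%. The fourth was Tfpi2. The abundant serpins Serpinh1 and Serpinf1 had log2 differences of -0.06 and -0.14.

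Xenobiotic and retinoid genes included several of the larger rises. Ahr, the aryl hydrocarbon receptor, read 39.4 and 837 at 21%, and 12.0 and 745 at 0.1%, at least 4.18-fold and 3.73-fold higher. Cyp1b1, a P450 enzyme and target of that receptor, read 648 and 2427 at 21%, and 357 and 3148 at 0.1%, 3.74-fold and 8.82-fold higher, with 2.17 from its other bright probe set beside a log2 difference of 1.90. These were the called genes of 5 compared, whose median was 0.68. Among 7 retinoid genes, with a median of 0.53, Crabp2, which carries retinoic acid to its receptor, was 4.98-fold higher (354 and 1763), Lxn, latexin, 3.09-fold higher (1209 and 3732), and Crabp1, another retinoic acid binding protein, 2.50-fold lower (3919 and 1565). All 3 were called the same way at 0.1%, so the paralogs Crabp1 and Crabp2 went opposite ways on both pairs of arrays.

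The transcripts of known CH1 partners were mostly close. Of 21 genes on that list 5 were bright enough to compare, 1 was called, and the median was -0.12. Ets1, an ETS family factor, read 1082 and 353 at 21%, and 1556 and 694 at 0.1%, 3.07-fold and 2.24-fold lower. Its other bright probe set gave a log2 difference of -1.75 beside -1.62 for the one used, while its remaining probe sets, under 500 on both arrays at 21%, gave 0.02 and -0.18. Hif1a read 2062 and 2449 at 21%, Cited2 1453 and 1944.0, and Rela 1057 and 971, with log2 differences of 0.25, 0.42 and -0.12. Mdm2, also on this list, had a value of -0.58.

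Target genes of factors that dock on CH1 were examined at 21% oxygen. Of 30 known HIF targets compared, 2 were higher and 0 lower, with a median of -0.23 at 21% and -0.06 at 0.1%; under scaling to the same median the counts were 1 higher and 3 lower. Adm, adrenomedullin, a vasodilator peptide, read 81.4 in wild type and 865 in tri-CH1 at 21%, at least 4.32-fold higher, and 2182 and 3287 at 0.1%, 1.51-fold. Hmox1, heme oxygenase, read 552 and 1105 at 21%, which lies at the 2-fold limit. The glycolytic genes Aldoa and Ldha had log2 differences of -0.41 and 0.22, and Lox, lysyl oxidase, and Mif, a cytokine, of 0.55 and -0.24. Of 34 interferon-stimulated and 13 MHC class I genes measured, 5 and 4 were bright enough to compare. None was called, beside 6.61% of all genes compared, and so few genes can hold 0 calls at that share. Their medians were 0.47 and 0.62, and 0.15 and 0.40 under scaling to the same median, with 4 genes compared in each. The NF-kB and inflammatory list gave 2 higher and 2 lower of 10, with a median of 0.31. Ptx3, a secreted pattern recognition protein, read 503 and 2981 at 21%, and 250.2 and 2579 at 0.1%, 5.93-fold and 10.3-fold higher, and the chemokine Cxcl5 was at least 3.26-fold higher at 21%. Ptgs2, cyclooxygenase 2, was 2.37-fold lower, at 5194 and 2195, with -1.68 from its other bright probe set, and the chemokine Ccl7 2.10-fold lower. Nfkbia, the inhibitor of NF-kB, had a log2 difference of 0.69.

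Of 12 p53 targets, 2 were lower and 0 higher, beside 3.48% lower over all genes compared. A negative log2 difference was found in 11, and the median was -0.47. Under scaling to the same median 4 were lower. Pmaip1, which encodes the death-promoting protein Noxa, read 569.6 and 13.1 at 21%, and 629 and 59.6 at 0.1%, at least 2.85-fold and 3.15-fold lower. Plk2, a kinase induced by stress, read 4509 and 1672 at 21%, 2.70-fold lower. Ccng1, cyclin G1, and Cdkn1a, the cell cycle inhibitor p21, read 6465 and 3264, and 4504 and 2621, at 21%, log2 differences of -0.99 and -0.78.

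Transcription factors of patterning were mostly dim. Of 27 Hox genes measured 3 were bright enough, and Hoxb2 and Hoxc6 were 2.36-fold and 2.15-fold lower while Hoxa9 had a log2 difference of 0.73. The probe set used for Hoxc6 can match more than 1 gene, and its other bright probe set gave a log2 difference of -0.52. At 0.1% Hoxc6 had a value of -0.78, and Hoxb2 was too dim to compare. Among 11 mesenchymal factors, with a median of 0.18 and of -0.17 under scaling to the same median, Foxc1 was 3.01-fold higher, at 237 and 714, Prrx2 2.24-fold higher, at 767 and 1714, and Runx1 2.89-fold lower, at 580 and 200.4. Of these, Prrx2 was called the same way at 0.1%. The brighter members Foxp1, Sox4, Prrx1 and Twist2 had values of -0.36, -0.97, 0.18 and -0.92.

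Housekeeping systems were mostly close between the genotypes. None of 47 oxidative phosphorylation subunits, 31 proteasome subunits, 29 ribosome assembly genes, 22 stress response genes of the ATF4 type or 8 housekeeping genes was called, and their medians lay between -0.12 and 0.08. Over all genes compared 6.61% were called, and the shorter lists here can hold 0 or a few calls at that share. Under quantile or cyclic loess normalization 1 proteasome gene was higher, and under scaling to the same median 2 stress response genes were lower. None of 19 heat shock genes was called either, with a median of -0.25 and a negative value in 16, but 3 were lower under scaling to the same median and 1 under cyclic loess. Of 16 DNA replication genes 0 were called and 13 had a positive value; of 23 mitosis genes 1 was called, Cdc25b at 2.03-fold, and 21 were positive; that call ended under each of the 3 other normalizations. The medians of both lists were 0.28, and 0.06 under scaling to the same median. In the cholesterol and fatty acid list 2 of 19 were lower, Sc5d and Cyp51, which act late in cholesterol synthesis, and the median was -0.38 at 21% and -0.08 at 0.1%.

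Further lists each held few called genes. Of 9 lipid genes, with a median of -0.23, Plin2, a lipid droplet coat protein, was 2.45-fold lower and Adipor2, an adiponectin receptor, 2.36-fold lower, at 831 and 352, whereas Adipor2 read 1152 and 1341 at 0.1%. The median of these 9 genes at 0.1% was 0.12. Of 19 Nrf2 target and glutathione genes, with a median of 0.07 and of -0.15 under scaling to the same median, Nqo1 and Hmox1 were higher, calls that both ended under that scaling, and Gsto1, a glutathione transferase, 2.44-fold lower, at 11608 and 4758. Of 17 lysosomal genes, with a median of -0.26, Ctsk, cathepsin K, was 2.46-fold lower. Of 14 annexins and S100 genes, with a median of 0.31, Anxa8 and S100a16 were higher, while Anxa2 and Anxa1 had values of 0.39 and -0.58. Of 8 metallothionein and metal transport genes, the zinc transporter Slc30a3 was at least 2.70-fold higher, and Mt2 and Mt1, which buffer zinc, had values of 0.96 and 0.56. The median of the 8 was 0.60 at 21% and -0.16 at 0.1%. Of 8 G1 cyclins and inhibitors Ccnd1 was the called gene, and 0 of 12 placental genes measured were bright enough. Jup, a desmosome gene and 1 of 2 epithelial genes compared, was 2.10-fold lower, and Lyz1, on the macrophage list, 2.79-fold lower. The probe set used for Lyz1 can match more than 1 gene, and its log2 difference at 0.1% was -0.89. The other probe sets of Lyz1 read 117 and 131, and 215.9 and 168.5, at 21%.

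The differences were read a second time on the pair of arrays at 0.1% oxygen, where 155 of 4101 genes were higher in tri-CH1 (3.78%), 134 were lower (3.27%) and 289 were called in all (7.05%). Of the 131 genes higher at 21%, 68 were called higher at 0.1%, which is 51.9% of the first list and 43.9% of the list at 0.1%. Of the 146 lower genes, 77 were called lower at 0.1%, 52.7% and 57.5% of the lists. No gene was called in opposite directions. The sign was the same at 0.1% for 119 of the higher and 140 of the lower genes, and the median log2 difference went from 1.34 to 1.11 and from -1.39 to -1.08.

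**Figure D4:**
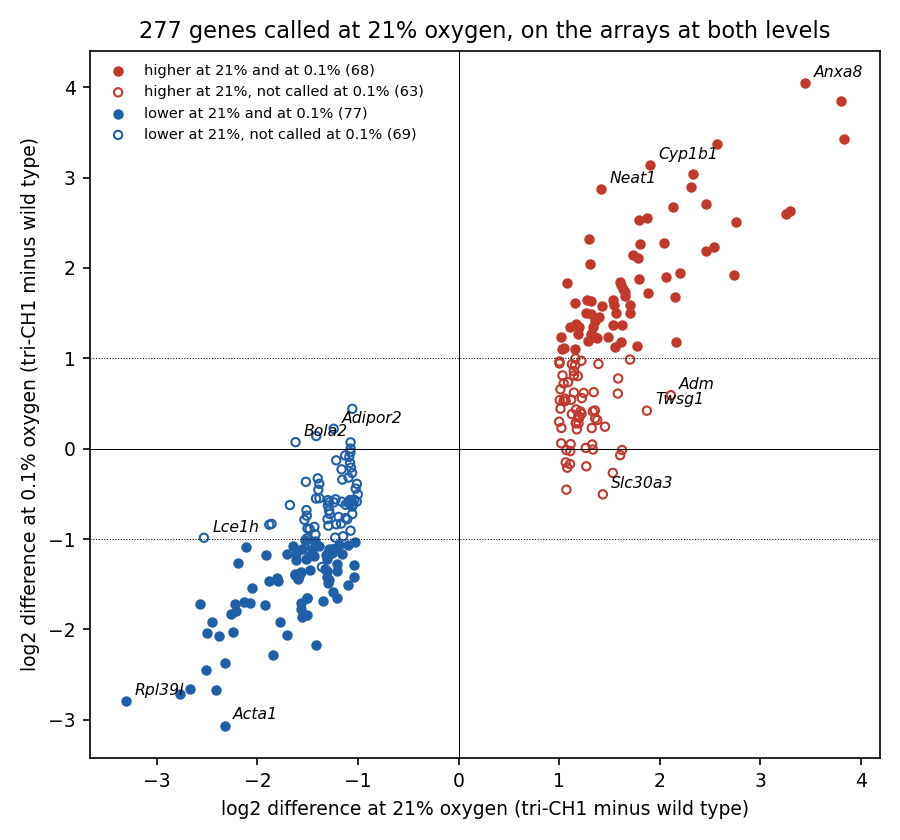
Log2 difference (tri-CH1 minus wild type) of the 277 genes called at 21% oxygen, with the value at 21% on the x axis and at 0.1% on the y axis; filled points were called the same way at both levels and open points at 21% alone. The 68 filled red and 77 filled blue points lie in matching quadrants, and the open points gather at the smaller differences.

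The size of a difference and the brightness of the gene went along with whether it was met at 0.1%. Of the 43 genes at least 3-fold higher, 37 were called higher at 0.1%, against 31 of the 88 that were 2-fold to 3-fold higher. For lower genes the counts were 36 of 41 and 41 of 105. Among called genes whose brighter signal was between 500 and 1000, 33.9% were called the same way at 0.1%, and the share was 61.5% between 1000 and 2000, 67.4% between 2000 and 4000, 80.0% between 4000 and 8000 and 88.9% from 8000. Genes near 500 at 21% could miss the limit of 500 at 0.1% by brightness alone, so these shares depend in part on that limit. The share of genes called at 21% varied less over these classes, between 5.77% and 8.04%. On the dimmer array 25 of the higher and 19 of the lower genes were under 200, and 38 and 67 were at 500 or more on both arrays.

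Other probe sets of the same gene gave a further reading on the same arrays. Of the 277 genes, 82 had another bright probe set, 116 in all, and 111 of these had the sign of the call and 76 were 2-fold or more in its direction. None was 2-fold the other way. The 5 of opposite sign belonged to 1110008P14Rik, Bola2, Lasp1, Ltbp3 and Rnf13, with log2 differences of -0.21, 0.06, 0.63, -0.12 and 0.25. In the direction of the call the median was 1.28 for the other probe sets and 1.50 for the ones used. Over 931 genes with exactly 2 bright probe sets, called or not, the SD between probe sets was 0.34 on the log2 scale, which covers the error between probe sets alone and not that between cultures.

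**Figure D5:**
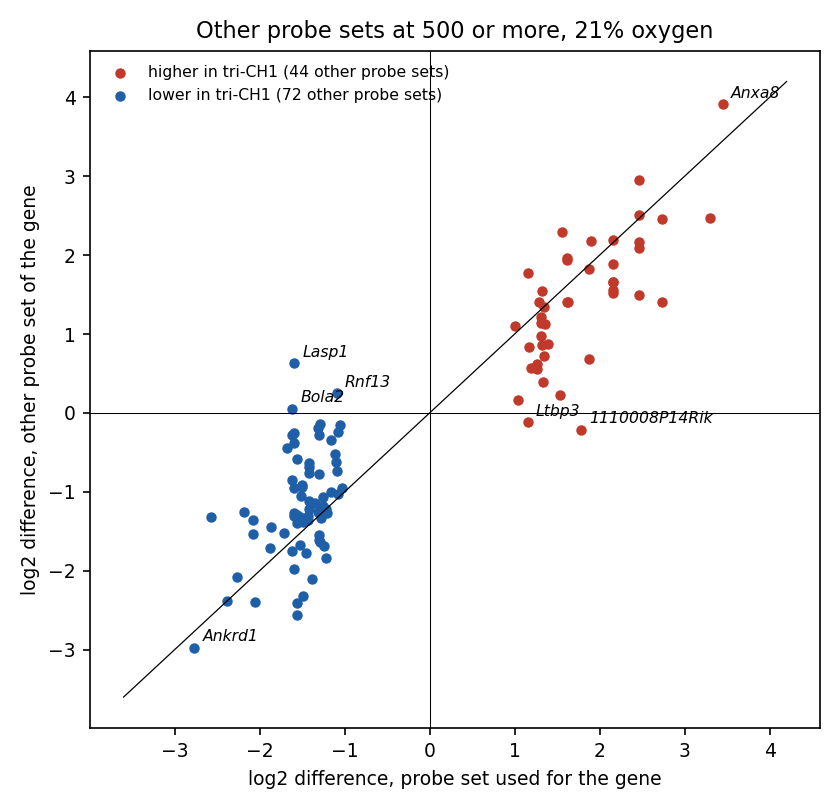
Log2 difference at 21% oxygen of 116 other bright probe sets (y axis) against that of the probe set used for the same called gene (x axis), red for higher and blue for lower genes, with the line of equality. Of the points, 111 lie in the quadrant of the call, and the 5 that do not are labelled with their gene beside a few of the largest.

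Some genes lay at the limits. Hmox1, at 2.001-fold, and Egr2, at 2.002-fold, were just inside the 2-fold limit, and Klf3, a repressor of the Krüppel-like family (507 and 1012), and Uap1, an enzyme of nucleotide sugar synthesis (849 and 425), were just outside it. Brd3, a bromodomain protein, entered with a brighter signal of 500.0, and Dgat1, which makes triglycerides, stayed out with 499.9.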

How the data were processed

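RNA from 4 cultures was measured on 4 Affymetrix arrays, 1 for each genotype at 21% and 0.1% oxygen. Signal intensity came from the statistical algorithm of Affymetrix, per the labels, which the authors scaled by 1 factor per array to a target of 500; the deposited intensity values are linear, and their 2% trimmed mean was 500.2 on each array. The program behind these signals is not given in the sources used here. Of 22690 probe sets, 20380 had 1 gene symbol in the platform annotation, 691 several and 1555 none, and 64 were controls; 20351 matched the gene reference, which updated 0 symbols. A gene took its probe set with the highest mean over the 4 arrays, and 410 X- or Y-linked genes were left out. Differences are log2 ratios with a floor of 200. Named genes were the 20 largest differences each way, the called members of 51 gene lists and up to 4 of the brightest other members of a list; Klf3, Uap1, Brd3, Dgat1 and the genes outside the lists in the closing section were chosen after their values were seen. The members and lists were chosen with earlier results of these data known. The counting rule was run on simulated signals with noise of a chosen size. That run checks the counting and not the spread between cultures. Alternatives were floors of 100 and 400, no floor, a floor at the scaled background, minimums of 250 and 1000 for the brighter signal, quantile and cyclic loess normalization, scaling to the same median, the mean over probe sets, plain _at probe sets and the probe set brightest at 21%. Values were computed in Python 3.11.15 (pandas 2.3.3, numpy 2.4.6), normalized with limma 3.58.1 in R 4.3.3 and plotted with matplotlib 3.10.9. The number of arrays limits the precision.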

Additional observations from a re-analysis of the deposited data

Results flagged for a closer look

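Slc30a3, a zinc transporter, read 81.4 in wild type and 541 in tri-CH1 at 21% oxygen, and 818 and 576 at 0.1%. The genotype difference went opposite ways at the 2 oxygen levels, with a log2 difference of at least 1.44 at 21% and of -0.51 at 0.1%. Slc30a3 was not alone in this, since 12 of the higher and 5 of the lower genes had the opposite sign at 0.1%. Faap24, for example, had log2 differences of 1.07 and -0.45. With 1 array per group the difference in Slc30a3 was not tested, and its call at 21% was lost with a floor of 400.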

How the results depend on the processing

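The counts moved with the limits. The 131 higher genes became 83 with a floor of 400, 64 with a minimum of 1000 and 77 with scaling to the same median, and the 146 lower genes became 89 with a minimum of 1000 and 250 with scaling to the same median. That scaling lowered the median of all genes compared from 0.034 to -0.21 and the share of higher genes among those called from 47.3% to 23.5%. It ended, among others, the calls of S100a16, Prrx2, Ltbp3 and Ntrk2. The 145 genes called the same way at 0.1% became 94 with a minimum of 1000. Quantile normalization kept 264 of the 277 calls, cyclic loess 253, scaling to the same median 223, a floor of 400 192 and a floor at the scaled background, 343, 217. A floor of 100 or none cannot move a count. All 40 genes with the largest differences stayed 2-fold or more apart with a floor of 400, the floor at the scaled background, the mean over probe sets and each of the 3 normalizations. With a floor of 400, 17 named list genes fell under 2-fold: Cdc25b, Cdh3, Col7a1, Cxcl5, Efnb2, Egr2, Foxc1, Inhbb, Klf2, Maff, Mmp9, Nid2, Nqo1, Ntrk2, Pmaip1, Runx1 and Slc30a3. Ltbp3 reversed to -0.12 with only plain _at probe sets, because another probe set then stood for the gene. No paired analysis was possible because each group has 1 array and the labels carry no replicate numbers, and for the same reason no replicate could be left out. The scaled background of the tri-CH1 array, 343, exceeds the floor of 200.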

Other observations

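A few of the called genes outside the lists are given here by their values. Cav1, the main coat protein of caveolae, the flask-shaped pits of the plasma membrane, read 3859 in wild type and 12568 in tri-CH1 at 21%, and 4521 and 13654 at 0.1%, 3.26-fold and 3.02-fold higher. Its partner Cav2 read 437 and 1519 at 21%, and 242 and 1399.8 at 0.1%, 3.48-fold and 5.79-fold higher. Lgals3, galectin 3, read 1988 and 6818 at 21%, 3.43-fold higher, and Thbs4, a thrombospondin, read 6.5 and 585 at 21%, and 6.1 and 603 at 0.1%. Neat1, a long noncoding RNA of nuclear paraspeckles, read 528 and 1414 at 21%, and 143 and 1464 at 0.1%. F2r, the thrombin receptor, read 11566 and 4215 at 21%, 2.74-fold lower and 2.15-fold lower at 0.1%, and is among the brightest genes that fell.

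Called genes lay on all autosomes, from 4.14% of the genes compared on chromosome 11 to 11.9% on chromosome 13, where 9 of 160 were higher and 10 lower. In 10 pairs of called genes the annotated spans began within 100 kb of each other, and 8 pairs went the same way. Neighbouring pairs were not counted over all genes compared, so these counts have no share to be set against. The 8 pairs were Dcxr and Cbr2, Ltbp3 and Neat1, Cxcl5 and Ppbp, and Cav2 and Cav1, all higher, and Ier3 and Ppp1r18, Mllt11 and Cdc42se1, Tfpi2 and Gng11, and Thy1 and Mcam, all lower. Stk25 and Bok, and Glis2 and Pam16, went opposite ways.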
